A study of Takifugu obscurus and Periophthalmus magnuspinnatus and Gallus gallus with 6 samples.

Results

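The genes described here are the OLIG and NKX transcription factors of the ventral spinal cord, measured in single cells of fugu and chicken. Gene rows were taken where their symbol, ignoring case, was olig1, OLIG2, nkx2.2a, NKX2-2, NKX6-1 or NKX6-2. This gave 6 rows of the 38390 gene rows in the fugu and chicken tables. In fugu they were olig1 (ENSTRUG00000022451), OLIG2 (ENSTRUG00000029420) and nkx2.2a (ENSTRUG00000007981), and in chicken OLIG2 (ENSGALG00010010227), NKX2-2 (ENSGALG00010018111) and NKX6-2 (ENSGALG00010001577). No row of either species carried the symbol NKX6-1 and no chicken row carried olig1, so these genes were not analysed here. The fugu rows nkx6.1 and nkx6.2 are spelled differently and are given beside the others as relatives.

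Each species had 2 libraries, and each library was a pool of spinal cord tissue from several animals, with no treatment named in the labels. Per the study's methods, only the rostral cord was sampled, at the level of the pectoral fin in fugu and the wing in chicken. The fugu, labelled Takifugu obscurus and described in the study's methods as a hybrid with Takifugu rubripes, were taken about 1 month after hatching. The chicken (Gallus gallus) cords were taken at embryonic days 10 to 11, which is Hamburger-Hamilton stages 36 to 37. Live cells were sorted by propidium iodide exclusion and their RNA was counted with a droplet method as unique molecular identifiers (UMIs), each of which marks 1 captured RNA molecule. Species, age and library size differed together, so the species are given side by side and were not tested against each other. Mudskipper libraries were not used here.

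OLIG proteins are basic helix-loop-helix factors, and NKX2 and NKX6 proteins are homeodomain factors. In the vertebrate neural tube their genes respond to Sonic hedgehog from the floor plate and divide the ventral cord into progenitor domains. In mouse and chick, the OLIG2 domain makes motor neurons first and oligodendrocyte precursors later, and OLIG2, NKX2-2 and the HMG-box factor SOX10 stay on in the oligodendrocyte lineage. In mouse, Nkx6-2 is also found in myelinating oligodendrocytes.

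Barcodes over 3000 UMIs in fugu, over 5000 in chicken library 1 and over 5500 in chicken library 2 were kept as cells. After removal of likely doublets, 2556 and 2519 fugu cells and 7626 and 7743 chicken cells remained in libraries 1 and 2. Library totals were 25763932 and 25721131 UMIs in fugu and 129947198 and 131974386 UMIs in chicken. The median cell had 5386 and 5455 UMIs in fugu and 12124.5 and 12440 UMIs in chicken. The libraries shared 0 cell barcodes in fugu and 14 in chicken. Cells hold only part of the RNA. Barcodes over the minimums, before doublets were removed, held 62.3% and 62.4% of fugu UMIs and 86.0% and 87.4% of chicken UMIs.

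Cells were clustered without the listed OLIG and NKX rows, and the clusters were grouped into classes by other markers. The fugu relatives nkx6.1 and nkx6.2 were not left out of the clustering. In fugu, the mature oligodendrocyte-like class (1234 and 1113 cells) was led by the myelin genes plp1b, cd59a and mbpa, and the precursor-like class (57 and 42 cells) by prdm8b, sox8, gpr17 and tcf7l2. These 2 classes together are called the fugu oligodendrocyte lineage. A further cluster of 142 and 95 cells had SOX10 in 87.3% of its cells but had sema5a (a semaphorin gene), c1ql4b, PLXNB1 (a plexin gene), ccn2a and pvalb5 as its leading genes. It carried sema5a, c1ql4b and PLXNB1, the 3 genes taken here as a radial glia panel of the study, so it was left unnamed. It is called the sema5a cluster. The study's text names Sox2, Vim and Slc1a2 among its radial glia markers, and this exception did not use them. The other classes were astrocyte-like (293 and 329 cells), radial glia or progenitor-like, cycling, neuron-like (339 and 332 cells), microglia-like, mural-like and small unnamed clusters led by prf1.1 and hbbe2.

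In chicken, the lineage held precursor-like cells led by PDGFRA (685 and 503 cells), cycling lineage cells (625 and 649), intermediate cells with PDGFRA (882 and 916), GPR17-high cells (1104 and 1143) and differentiating oligodendrocyte-like cells with ENPP6 (848 and 1111). Astrocyte-like cells fell into a class led by SLC6A11 (1202 and 1266 cells) and a class led by AQP1 (647 and 740 cells). Neuron-like cells (1081 and 723), other cycling cells (339 and 463), erythrocyte-like and endothelial-like cells and 2 unnamed clusters led by IGFBP7 and CRABP1 made up the rest. Levels are UMIs per 1000000 UMIs of the class and library (CPM), and bracketed ranges are exact 95% counting intervals.

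The fugu olig1 gene was found almost only in the sema5a cluster. Of the 147 olig1 UMIs in kept fugu cells, 139 (94.6%) were in that cluster, as were 95 of the 101 cells with any olig1 UMI. The level was 104 CPM [82.8 to 128] in library 1 and 101 CPM [75.7 to 131] in library 2 of the sema5a cluster. In the mature class it was 0.143 CPM in library 1 and 0 in library 2, where 3 UMIs, the limit that a count of 0 allows, would give 0.480 CPM. The pooled olig1 rate was 1357-fold higher in the sema5a cluster than in the mature class, with a counting interval from 239.5-fold to 53965-fold, since it rests on 139 UMIs against 1 UMI.

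The other fugu classes held almost no olig1. Precursor-like cells had 1 UMI in library 1 (2.53 CPM) and none in library 2, which put the sema5a cluster 72.9-fold above them [12.9 to 2900, 139 UMIs against 1]. Astrocyte-like cells had 0 UMIs in both libraries, so the sema5a cluster was at least 149-fold higher over the 2 libraries. The other cycling cells had 4 UMIs in 2 cells of library 1 and 0 in library 2. Neuron-like and microglia-like cells had 1 UMI each, in library 2. Barcodes under 100 UMIs, a measure of free RNA, gave olig1 levels of 2.99 and 9.41 CPM, above every class but the sema5a cluster, apart from the cycling cells of library 1 at 5.71 CPM.

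**Figure D1:**
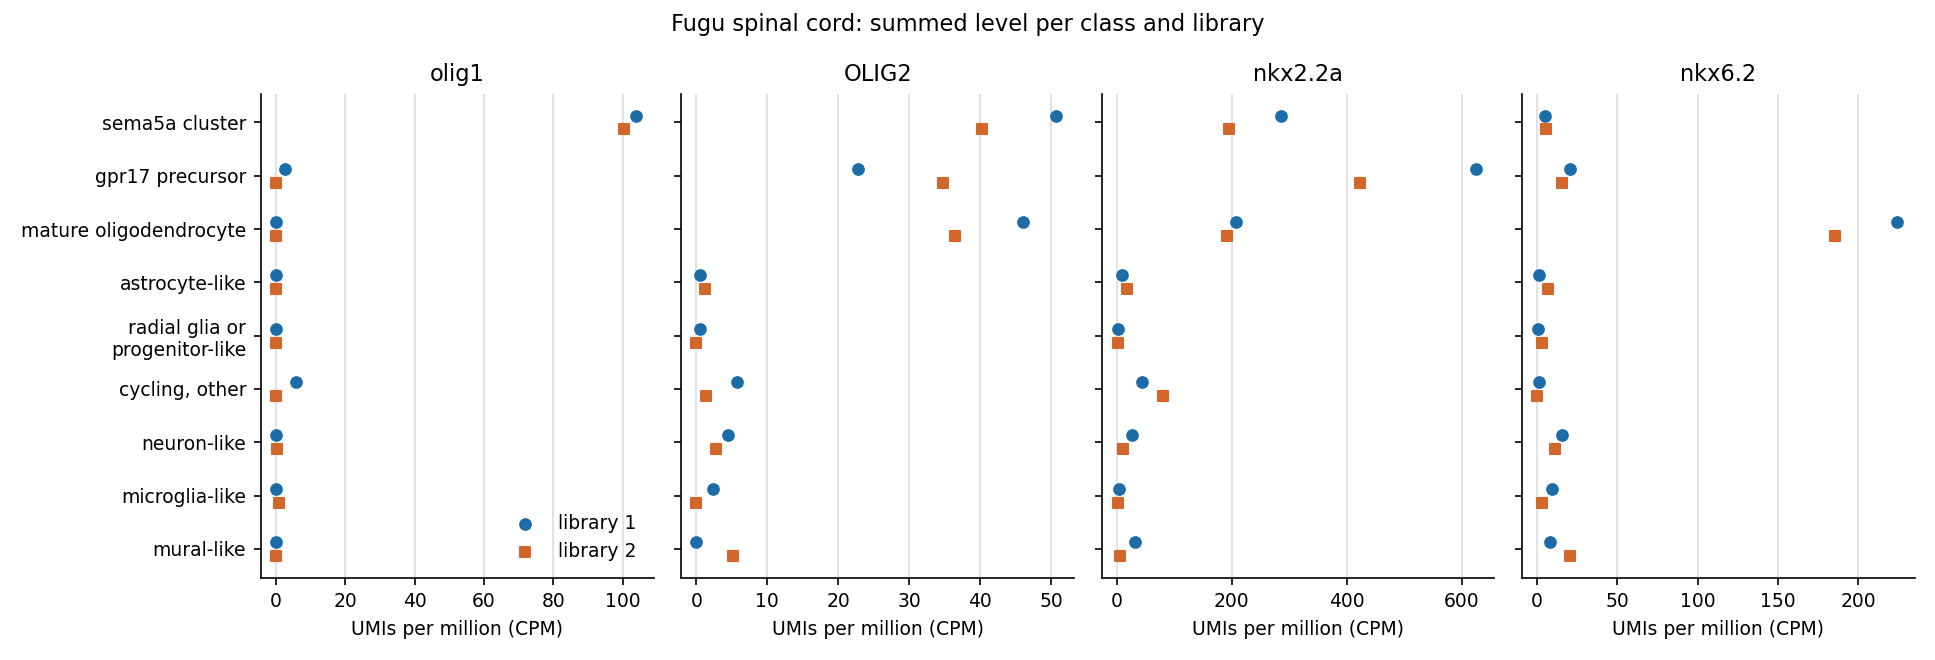
Summed levels of the fugu genes in each cell class (CPM, linear axes that differ between genes), with a circle for library 1 and a square for library 2. The sema5a cluster stands apart for olig1 at 104 and 101 CPM, nkx2.2a is highest in the gpr17 precursor class at 626 and 423 CPM, and nkx6.2 is highest in the mature class at 224 and 185 CPM.

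SOX10-positive fugu cells nearly all lacked olig1. To compare classes at 1 depth, each cell was thinned to 3000 UMIs, and a cell counted as SOX10-positive with at least 1 UMI from the 2 SOX10 rows of the table. By this measure 1325 of 2556 cells in library 1 (51.8%) and 1190 of 2519 in library 2 (47.2%) were SOX10-positive. Of these, 1285 cells (97.0% [95.9 to 97.8]) and 1169 cells (98.2% [97.3 to 98.9]) had no olig1 UMI, a mean of 97.6% ± 0.887 (SD, n = 2 libraries). Without thinning the shares were 95.7% and 97.4%. As background for SOX10, 3.75% and 2.71% of microglia-like cells were SOX10-positive after thinning, and none of them had olig1.

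Most SOX10-positive cells without olig1 were mature oligodendrocyte-like cells, which made up 84.7% and 84.2% of them. Mature cells were also 1089 of all 1325 SOX10-positive cells in library 1 and 984 of all 1190 in library 2. Precursor-like cells were 45 and 31 of these totals, so the shares of both classes largely follow class size. In the mature class, 1088 of 1089 SOX10-positive cells in library 1 and 984 of 984 in library 2 lacked olig1. The precursor-like class gave 3.50% and 2.65% of the cells lacking olig1, and its SOX10-positive cells lacked the gene in 45 of 45 and 31 of 31 cases. Neuron-like cells that were SOX10-positive, 27 and 37 in number, also carried no olig1. The sema5a cluster supplied 7.24% and 5.99% of the cells lacking olig1.

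Within the sema5a cluster, 93 of 131 SOX10-positive cells in library 1 (71.0% [62.4 to 78.6]) and 70 of 91 in library 2 (76.9% [66.9 to 85.1]) lacked olig1 after thinning. Without thinning these shares were 56.1% and 65.3%, so that a lacking cell is a cell with no UMI at its depth and not one shown to have no olig1 RNA. At this depth 38 and 21 of the SOX10-positive cells of the cluster carried olig1, and without thinning 61 of the 62 olig1-carrying cells in library 1 and 33 of the 33 in library 2 were SOX10-positive. The median total before thinning was 5456 and 5688.5 UMIs in the cells without olig1 and 6063.5 and 5632 UMIs in the cells with it.

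**Figure D2:**
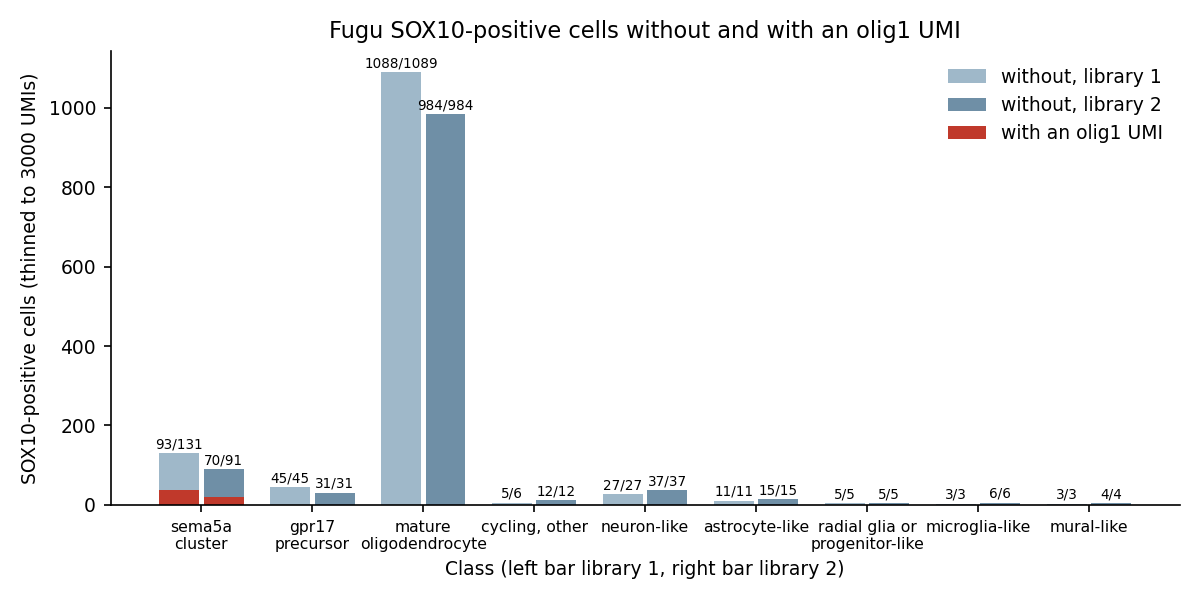
SOX10-positive fugu cells in each class after thinning to 3000 UMIs (vertical axis, number of cells), with library 1 as the left and library 2 as the right bar of each pair. Blue is cells without an olig1 UMI and red is cells with one, and the numbers above the bars are cells without olig1 over all SOX10-positive cells, 93 of 131 and 70 of 91 in the sema5a cluster.

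SOX10-positive sema5a cells without and with olig1 were compared gene by gene, on sums per library with the library as a block. The UMIs and CPM of this comparison are those after thinning. Of 2625 genes, 3 were called higher (0.114%) and 0 lower in cells without olig1 by edgeR's quasi-likelihood test, while 182 had an unadjusted p under 0.05. DESeq2 called 0. The 3 genes were apoa2, an apolipoprotein gene, epd, an ependymin gene, and plp1b, a myelin proteolipid gene. plp1b stood at 1374 and 1945 CPM in cells without olig1, against 896 and 318 CPM in cells with it (log2 1.29 ± 0.23 SE, edgeR adjusted p = 0.0025). In the cells without olig1, 182 of 383 plp1b UMIs in library 1 and 319 of 408 in library 2 came from 1 cell each, as did 74 of 102 in library 1 of the cells with olig1, and single cells likewise gave 282 of the apoa2 UMIs and 262 of the epd UMIs in library 2. Leaving out library 1 or 2 of the cells without olig1 gave 18 and 1 called genes, and leaving out library 1 of the cells with it gave 8. Those fits had no library block, unlike the full fit, so a change of model is mixed with the loss of a library. In the full fit nkx2.2a was not called (log2 -0.34, edgeR adjusted p = 0.85).

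Fugu OLIG2 was carried by all 3 SOX10-rich classes. Its level was 50.6 and 40.2 CPM in the sema5a cluster, 22.8 and 34.7 CPM in precursor-like cells and 45.9 and 36.5 CPM in mature cells. The sema5a and mature ranges overlapped, and the precursor range lay below both but rests on 9 and 11 UMIs. Mature cells, the largest class, held 549 of all 662 OLIG2 UMIs (82.9%). Neuron-like cells had 4.44 and 2.78 CPM, astrocyte-like cells 0.498 and 1.27 CPM, and radial glia or progenitor-like cells 0.590 and 0 CPM. Free RNA held 18.8 and 19.6 CPM, above all of these last classes. After thinning, OLIG2 was seen in 15.5% and 12.6% of sema5a cells, 3.51% and 11.9% of precursor-like cells and 12.3% and 9.52% of mature cells, against 0% of microglia-like cells in both libraries.

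Against astrocyte-like cells, OLIG2 and nkx2.2a rose in the fugu lineage. A gene was called at an edgeR adjusted p under 0.05 and a log2 difference over 0.25, and of all 13343 genes tested 47.2% were called in this comparison, 21.5% higher and 25.6% lower. OLIG2 averaged 44.7 and 36.4 CPM in the lineage and 0.498 and 1.27 CPM in astrocyte-like cells (log2 5.56 ± 0.49 SE, edgeR adjusted p = 6.09e-10). nkx2.2a was higher by log2 4.19 ± 0.33 (edgeR adjusted p = 1.62e-10). olig1 passed the minimum of 50 UMIs over all sums only through the sema5a cluster, which held 139 of its 147 UMIs, so no test of it is given and its counts stand as a description.

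Against neuron-like cells, OLIG2 and nkx2.2a also rose in the fugu lineage, in a comparison where 58.5% of genes were called, 27.3% higher and 31.1% lower. OLIG2 differed by log2 4.0 ± 0.38 (edgeR adjusted p = 2.18e-09) and nkx2.2a by 4.09 ± 0.32 (edgeR adjusted p = 1.11e-10). With DESeq2's scaling this comparison had 2719 genes higher and 4835 lower, against 3649 and 4154 with edgeR, and both genes stayed positive at 3.74 and 3.80. Mature-oligodendrocyte markers summed to 9300 and 8376 CPM in the neuron-like class, compared with 118767 and 119821 CPM in the mature class, and their part in the neuron-like values was not tested.

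OLIG2 did not separate the 3 SOX10-rich fugu classes. Precursor-like against mature cells gave log2 -0.70 ± 0.41 (edgeR adjusted p = 0.257), the sema5a cluster against mature cells -0.24 ± 0.31 (edgeR adjusted p = 0.578), and the sema5a cluster against precursor-like cells 0.46 ± 0.45 (edgeR adjusted p = 0.53). The depth limits these values, since in simulations of the last comparison 50.5% of genes changed 4-fold were recovered. With no filter on low counts the precursor value was -1.08 and was called (edgeR adjusted p = 0.0385), in a fit whose median over all genes was -0.54.

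Fugu nkx2.2a was highest in precursor-like cells. It stood at 626 and 423 CPM there, at 287 and 196 CPM in the sema5a cluster and at 208 and 192 CPM in mature cells. The precursor range lay above the other 2, which overlapped. UMIs of nkx2.2a were seen in 87.7% and 88.1% of precursor-like cells, 59.9% and 47.4% of sema5a cells and 60.5% and 57.3% of mature cells. Thinned, nkx2.2a was in 80.7% and 61.9% of precursor-like, 50.7% and 33.7% of sema5a and 43.6% and 41.2% of mature cells, against 2.5% and 0.905% of microglia-like cells.

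Outside these classes, nkx2.2a was found at 44.3 and 80.7 CPM in the other cycling cells, 26.6 and 10.7 CPM in neuron-like cells, 9.45 and 17.3 CPM in astrocyte-like cells and 1.77 and 2.23 CPM in radial glia or progenitor-like cells. Free RNA held 106 and 105 CPM. Of the 3630 nkx2.2a UMIs, 73.1% were in mature cells, 10.5% in precursor-like cells and 9.34% in the sema5a cluster.

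Between precursor-like and mature cells, nkx2.2a was called higher in precursor-like cells (log2 1.24 ± 0.26 SE, edgeR adjusted p = 0.000751), where 21.6% of all genes were called, 10.6% higher and 10.9% lower. The call was lost without library 1 of the precursor-like class (0.97, edgeR adjusted p = 0.0582) and at a UMI minimum 1.5 times as high (0.56, edgeR adjusted p = 0.0973). With DESeq2's scaling the comparison had 1872 genes higher and 1217 lower, against 1419 and 1457 with edgeR, and nkx2.2a was at 1.32.

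In the sema5a cluster against precursor-like cells, nkx2.2a fell by 1.36 ± 0.28 on the log2 scale (edgeR adjusted p = 0.000432), where 24.8% of all genes were called, 15% higher and 9.77% lower. Against mature cells, in a comparison with 43.8% of genes called, 24.6% higher and 19.2% lower, nkx2.2a in the sema5a cluster gave -0.12 ± 0.26 (edgeR adjusted p = 0.756), and its sign depended on the scaling, with 0.01 in DESeq2 and -0.57 with no filter on low counts. The fit with no filter called 2803 genes higher and 3979 lower in the sema5a cluster, against 3277 and 2565 with the filter.

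The fugu relatives nkx6.2 and nkx6.1 had other patterns. Both could take part in the clustering, so their values describe the classes. nkx6.2 was at 224 and 185 CPM in mature cells, which held 95.7% of its 2845 UMIs. It was at 20.3 and 15.8 CPM in precursor-like cells and 4.94 and 5.48 CPM in the sema5a cluster. These low levels rest on 13 UMIs in precursor-like cells and 7 UMIs in the sema5a cluster. Free RNA held 53.8 and 52.5 CPM of nkx6.2, above both. Precursor-like against mature cells gave log2 -3.64 ± 0.40 (edgeR adjusted p = 1.30e-07), and the sema5a cluster against mature cells gave -5.68 ± 0.43 (edgeR adjusted p = 2.13e-11). Against precursor-like cells the sema5a value was -2.04 ± 0.75 (edgeR adjusted p = 0.0478), a call that was lost when any of the 4 class sums was left out. nkx6.1 was at 327 and 250.3 CPM in mural-like cells, which held 90 of its 116 UMIs, and at 0 in the sema5a and precursor-like cells.

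After thinning, the members were only partly seen in the same fugu cells. A cell with no UMI at its depth is not one shown to lack the RNA. Whether the members are in different cells was therefore not tested. In sema5a cells after thinning, OLIG2 was seen in 28.9% and 9.52% of cells with olig1 and in 10.6% and 13.5% of cells without it, so the order differed between libraries. nkx2.2a was seen in 57.9% and 28.6% of sema5a cells with olig1 and in 48.1% and 35.1% of those without. Of all SOX10-positive cells, 88.2% and 90.7% lacked OLIG2 and 54.4% and 59.6% lacked nkx2.2a at this depth. Without thinning, 78.8% and 83.4% lacked OLIG2 and 39.1% and 44.4% lacked nkx2.2a, so these shares depend on depth. After thinning, SOX10-positive precursor-like cells lacked nkx2.2a in 15.6% and 41.9% of cases, against 55.3% and 57.5% in the mature class. Without thinning these shares were 7.69% and 10.8% in precursor-like cells and 38.2% and 42.1% in mature cells.

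Among other genes of the lineage, several followed the same division of the fugu classes. These genes could take part in the clustering, so their values describe the classes. sox6, which encodes a SoxD factor of precursors in mouse, was at 532 and 627 CPM in the sema5a cluster and at 1.29 and 1.76 CPM in mature cells (log2 8.10 ± 0.36). znf488, a zinc finger gene, stood at 39.5 and 36.6 CPM in the sema5a cluster, against 0.286 and 0.160 CPM in mature cells. MYRF, the myelin regulatory factor and a mature marker listed for naming, was at 3.71 and 3.66 CPM in the sema5a cluster. In mature cells it was at 193 and 175 CPM (log2 -6.00). tcf7l2, a Wnt effector of newly forming oligodendrocytes in mouse, stood at 748 and 732 CPM in precursor-like cells, 3.71 and 3.66 CPM in the sema5a cluster and 35.3 and 32.6 CPM in mature cells.

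Of 11 tested partner genes in the oligodendrocyte lineage list, 3 were called higher and 4 lower in the sema5a cluster than in mature cells, where 24.6% of all genes were higher and 19.2% lower, with a median log2 of 0.14 against 0.00 for all genes. Between precursor-like and mature cells 6 were higher and 3 lower (median 2.95, all genes -0.22), where 10.6% of all genes were higher and 10.9% lower. The partner list shares genes with the markers listed for naming, such as SOX10 for the lineage and MYRF for mature cells. Its counts therefore partly repeat the naming. Of 18 hedgehog and ventral patterning genes tested, 5 were called higher and 1 lower in the sema5a cluster than in mature cells. Their median was 0.57, and of all genes the same 24.6% were higher and 19.2% lower. Between precursor-like and mature cells, 4 of the 18 were higher and 0 lower (median -0.77). In the sema5a cluster against precursor-like cells, 0 were higher, 1 was lower and 17 were not called. These counts therefore do not set the sema5a cluster apart from precursor-like cells. In both species this list mixes pathway genes such as PTCH1 and GLI1 with patterning genes such as PAX6, IRX3 and DBX1. It also holds SOX9, a marker used to name radial glia, so its counts give no pathway level. The hedgehog receptor gene ptch1 was at 23.5 and 38.4 CPM in the sema5a cluster and at 7.16 and 7.35 CPM in mature cells (log2 1.63). In the lineage against astrocyte-like cells, 0 of the 18 hedgehog and ventral patterning genes were higher and 16 lower (median log2 -5.48, all genes 0.04), where 21.5% of all genes were higher and 25.6% lower. Of the neuron-fate list, 3 genes were tested in fugu, and 1 was higher and 1 lower in the lineage than in neuron-like cells, where 27.3% of all genes were higher and 31.1% lower.

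Chicken OLIG2 was seen in nearly every lineage cell, and its level was lower in each class along the order from precursor-like to differentiating cells. It was at 4419 and 4134 CPM in precursor-like cells, 3838 and 3808 CPM in cycling lineage cells and 3202 and 3121 CPM in intermediate cells. GPR17-high cells had 1331 and 1287 CPM, and differentiating cells 679.9 and 649 CPM. Adjacent classes in this order did not overlap between libraries. UMIs of OLIG2 were seen in at least 99.3% of cells in each of these classes and libraries, and after thinning to 5000 UMIs still in 94.5% and 92.3% of differentiating cells.

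Of the non-lineage classes, SLC6A11 astrocyte-like cells had the most OLIG2, at 454 and 609.7 CPM, and other cycling cells followed with 210.3 and 292 CPM. AQP1 astrocyte-like cells had 47.6 and 40.4 CPM and neuron-like cells 24.5 and 119 CPM. The neuron-like range spanned that of the AQP1 astrocyte-like cells. Erythrocyte-like cells, which should lack the gene, had 11.4 and 51.5 CPM with UMIs in 4.65% and 13.6% of cells after thinning. Endothelial-like cells, another class that should lack it, carried OLIG2 in 34.6% and 17.4% of 26 and 23 thinned cells. Against that background, the thinned share was 72.3% and 73.5% in SLC6A11 astrocyte-like cells, 15.3% and 11.9% in AQP1 astrocyte-like cells and 7.68% and 16.3% in neuron-like cells. The AQP1 and neuron-like shares lay below those of the few endothelial-like cells. Against erythrocyte-like cells, the neuron-like shares were higher in both libraries and the AQP1 shares overlapped. Whether the AQP1 and neuron-like shares are background was not tested. Free RNA held 1732 and 1765 CPM of OLIG2.

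**Figure D3:**
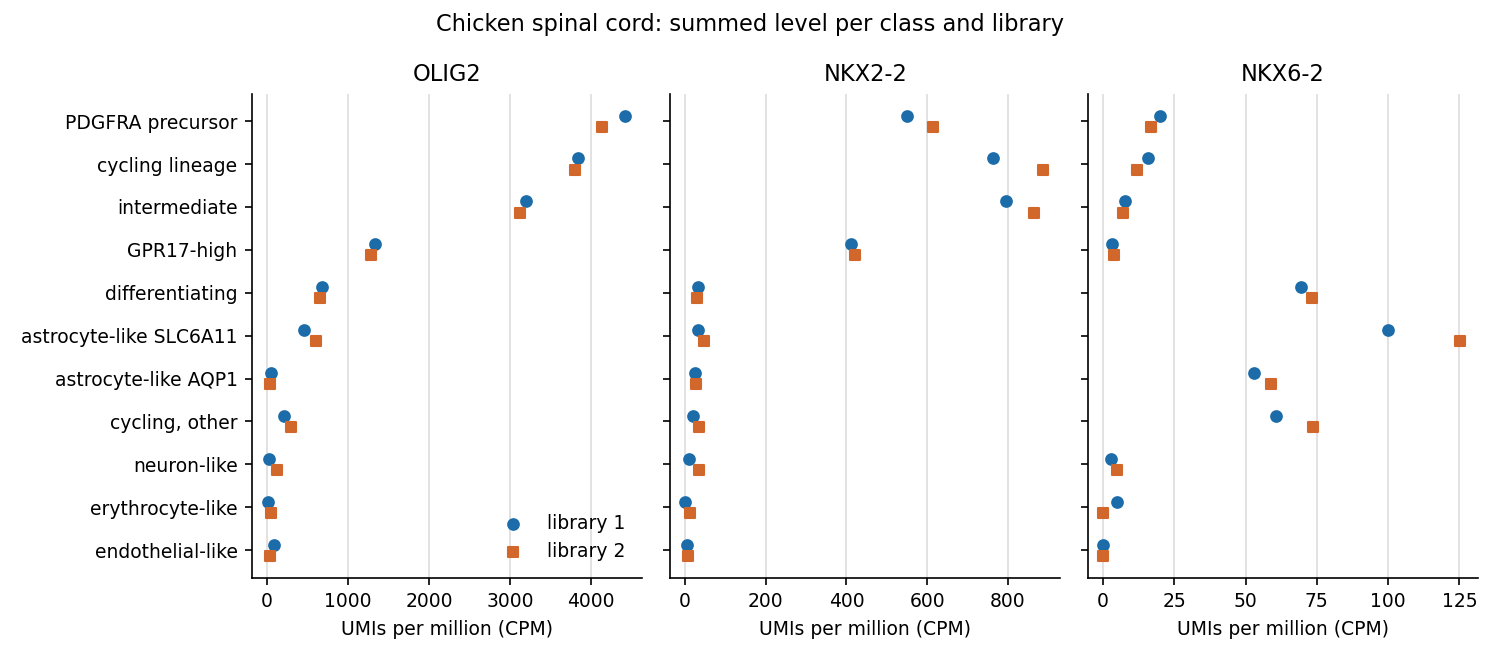
Summed levels of the chicken genes in each cell class (CPM, linear axes that differ between genes), with a circle for library 1 and a square for library 2. OLIG2 is lower in each class from precursor-like (4419 and 4134 CPM) to differentiating cells (679.9 and 649 CPM), NKX2-2 is high in the other lineage classes and low in the differentiating one, and NKX6-2 is highest in SLC6A11 astrocyte-like cells.

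Chicken NKX2-2 was highest in intermediate and cycling lineage cells and low in differentiating cells. Intermediate cells had 796 and 865 CPM, cycling lineage cells 764 and 886 CPM, precursor-like cells 550.0 and 615 CPM and GPR17-high cells 412 and 422 CPM. The first 2 classes overlapped, and the others were separate. Differentiating cells had 33.2 and 29.3 CPM, which overlapped SLC6A11 astrocyte-like cells (32.1 and 45.7 CPM) and lay within the range of neuron-like cells (9.91 and 34.7 CPM). Thinned cells carried NKX2-2 in 76.6% and 75.7% of GPR17-high cells, 13.3% and 10.4% of differentiating cells and 11.9% and 16.7% of SLC6A11 astrocyte-like cells, against 0% and 2.27% of 43 and 44 erythrocyte-like cells. A count of 0 in 43 cells allows a share of up to 6.98%. Free RNA held 268 and 295 CPM of NKX2-2, above the differentiating, astrocyte-like and neuron-like levels.

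Within the lineage, chicken NKX6-2 was highest in differentiating cells. SLC6A11 astrocyte-like cells had the highest level of all classes, 100.1 and 125 CPM, followed by differentiating cells with 69.4 and 73.4 CPM, other cycling cells with 60.7 and 73.6 CPM and AQP1 astrocyte-like cells with 52.9 and 58.9 CPM. Precursor-like cells had 20.1 and 16.7 CPM and GPR17-high cells 3.18 and 3.84 CPM, the lowest of the lineage. Erythrocyte-like cells had 4.89 and 0 CPM. Free RNA held 35.0 and 53.5 CPM of NKX6-2, above the precursor-like and GPR17-high levels. The differentiating range lay inside that of the other cycling cells, and these 2 classes are not separated.

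In the chicken lineage against astrocyte-like cells, OLIG2 and NKX2-2 rose and NKX6-2 fell. Of all 13408 genes tested, 57.9% were called in this comparison, 25.1% higher and 32.8% lower. OLIG2 differed by log2 2.68 ± 0.54 (edgeR adjusted p = 0.000449), NKX2-2 by 3.82 ± 0.46 (edgeR adjusted p = 2.36e-06) and NKX6-2 by -2.11 ± 0.19 (edgeR adjusted p = 2.02e-07).

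Against neuron-like cells all 3 chicken members were called higher in the lineage, with 66.1% of genes called, 26.6% higher and 39.5% lower. The values were 5.04 ± 0.60 for OLIG2 (edgeR adjusted p = 1.96e-06), 4.53 ± 0.47 for NKX2-2 (edgeR adjusted p = 4.61e-07) and 2.52 ± 0.23 for NKX6-2 (edgeR adjusted p = 1.61e-07). The neuron-like class of library 2 decided their size, since OLIG2 was at log2 4.32 without neuron-like library 1 and 6.54 without neuron-like library 2. NKX2-2 was at 3.89 and 5.64 in the same fits, and NKX6-2 at 2.16 and 2.94. Mature-oligodendrocyte markers summed to 282 and 914 CPM in the 2 neuron-like samples and moved with these values, and their part was not tested.

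Between precursor-like and differentiating cells, OLIG2 and NKX2-2 rose and NKX6-2 fell in precursor-like cells, where 59.9% of genes were called, 32.8% higher and 27.1% lower. OLIG2 differed by log2 2.25 ± 0.46 (edgeR adjusted p = 0.00029), NKX2-2 by 3.78 ± 0.42 (edgeR adjusted p = 1.17e-07) and NKX6-2 by -2.39 ± 0.20 (edgeR adjusted p = 3.73e-09). SOX10 was lower in precursor-like cells too (log2 -2.31 ± 0.35), at 148 and 152 CPM, against 535 and 562 CPM in differentiating cells.

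In GPR17-high against differentiating cells, NKX2-2 rose by 3.61 ± 0.41 (edgeR adjusted p = 5.66e-07) and NKX6-2 fell by 4.47 ± 0.23 on the log2 scale (edgeR adjusted p = 1.21e-11), where 38.2% of genes were called, 19.0% higher and 19.2% lower. OLIG2 was not called (log2 0.84 ± 0.45, edgeR adjusted p = 0.154), but was called with only these classes in the fit (0.85, edgeR adjusted p = 0.000432) and with doublets kept (0.85, edgeR adjusted p = 0.0193).

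**Figure D4:**
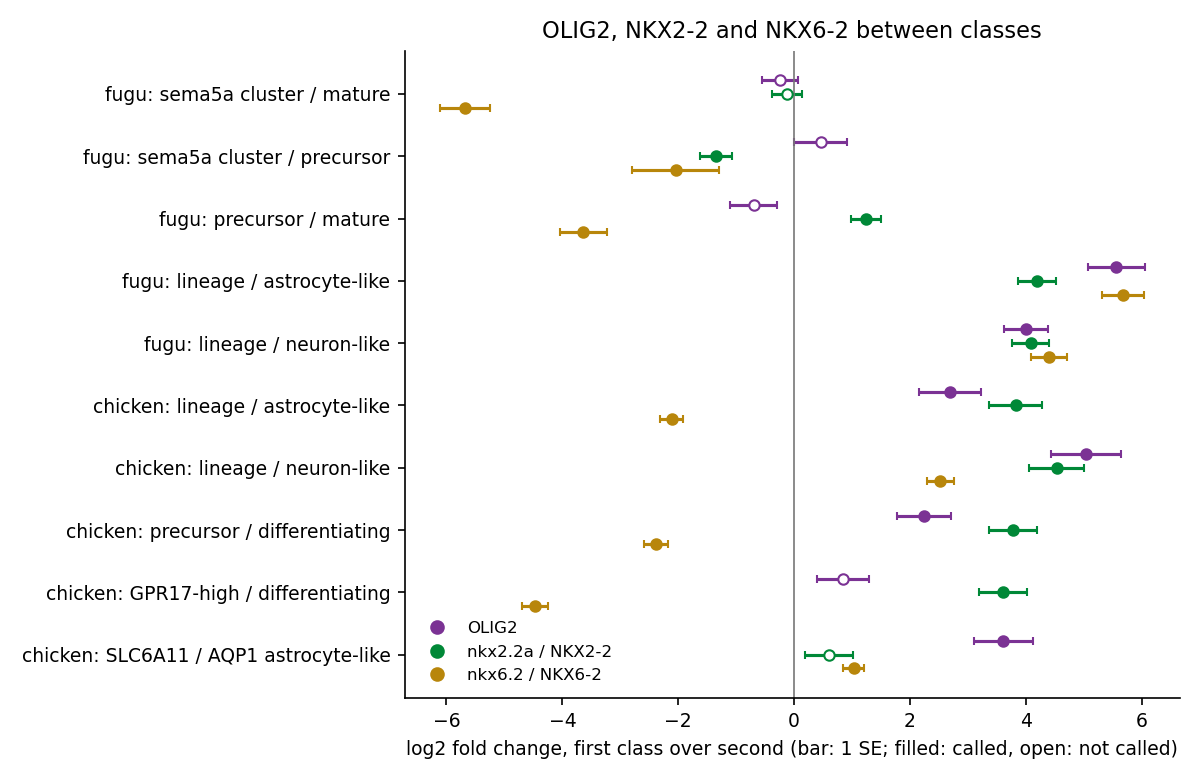
Log2 differences of OLIG2, nkx2.2a or NKX2-2, and nkx6.2 or NKX6-2 between classes (horizontal axis, first class over second, bars of 1 SE), with filled points called by edgeR and open points not called. NKX6-2 in chicken is positive against neuron-like cells and in SLC6A11 against AQP1 astrocyte-like cells and negative in the other comparisons, and OLIG2 in fugu lies between -0.70 and 0.46 in the comparisons among SOX10-rich classes.

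The differentiating and GPR17-high classes each held clusters that differed in these genes. Of the differentiating clusters, the one led by PLLP, ENPP6 and CLDN11 had NKX2-2 at 9.4 and 10.7 CPM and NKX6-2 at 110.3 and 107 CPM, whereas the one led by FABP9 and MBP had NKX2-2 at 56.3 and 52.0 CPM and NKX6-2 at 29.6 and 31.8 CPM. In thinned cells NKX2-2 was found in 5.1% and 4.8% of cells of the PLLP cluster and in 21.2% and 17.4% of cells of the FABP9 cluster. The 2 GPR17-high clusters, numbers 5 and 7, had OLIG2 at 1746 and 1798 CPM and at 769 and 744 CPM, and NKX2-2 at 536 and 590 CPM and at 244 and 244 CPM.

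**Figure D5:**
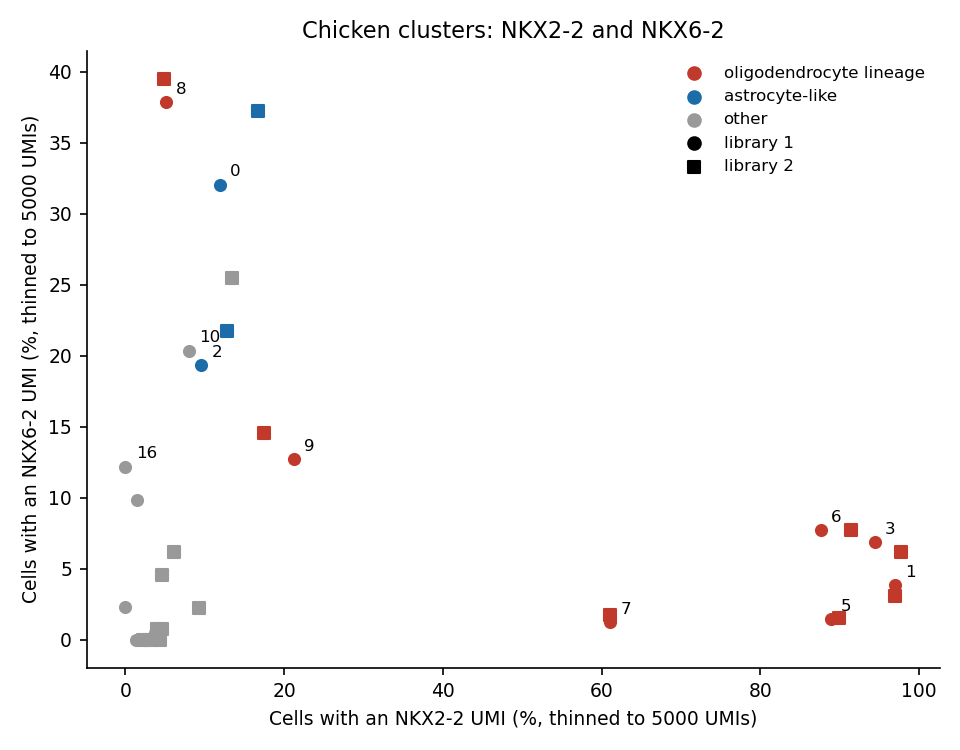
Share of cells with an NKX2-2 UMI (horizontal axis, percent) and with an NKX6-2 UMI (vertical axis, percent) in each chicken cluster after thinning to 5000 UMIs, as a circle for library 1 and a square for library 2. Numbers are cluster numbers, of which 8 is the PLLP cluster and 9 the FABP9 cluster of the differentiating class, and the other lineage clusters, in red, lie at the lower right with much NKX2-2 and little NKX6-2.

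The 2 astrocyte-like classes of chicken differed in OLIG2 and NKX6-2. In SLC6A11 against AQP1 astrocyte-like cells, OLIG2 rose by log2 3.61 ± 0.51 (edgeR adjusted p = 2.02e-05) and NKX6-2 by 1.03 ± 0.18 (edgeR adjusted p = 0.000302), and NKX2-2 was not called (0.60 ± 0.42, edgeR adjusted p = 0.36). Of all genes, 22.5% were called, 10.3% higher and 12.1% lower. The NKX6-2 call was lost at a UMI minimum 1.5 times as high (0.71, edgeR adjusted p = 0.0533). In the same comparison the hedgehog target GLI1 was at 5.18 and 7.54 CPM in SLC6A11 cells and at 0.326 and 0.670 CPM in AQP1 cells, and of the 21 hedgehog and ventral patterning genes tested 7 were called higher and 2 lower (median log2 0.48, all genes 0.01), beside 10.3% and 12.1% of all genes.

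OLIG2 and NKX6-2 were often found in the same SLC6A11 astrocyte-like cells. After thinning, OLIG2 was seen in 88.8% and 90.7% of cells with NKX6-2 and in 64.5% and 63.4% of cells without it. NKX2-2 was seen in 24.2% and 30.1% of the cells with NKX6-2 and 6.12% and 8.81% of those without. In the differentiating class NKX2-2 was seen in 8.02% and 6.94% of cells with NKX6-2 and in 15.1% and 11.7% of cells without, but this class pools 2 clusters that differ in both genes. Within the PLLP cluster the shares were 5.10% and 5.28% of cells with NKX6-2 and 5.04% and 4.51% of cells without. Within the FABP9 cluster they were 16.4% and 12.7% of the 55 and 71 cells with NKX6-2 and 22.0% and 18.2% of cells without. In neuron-like cells with OLIG2, 13.3% and 37.3% also carried NKX2-2, against 2.40% and 1.49% of neuron-like cells without OLIG2. SOX10 was seen in 10.8% and 30.5% of the neuron-like cells with OLIG2, against 1.70% and 4.13% of those without, and its part in these shares was not tested.

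Few chicken SOX10-positive cells lacked OLIG2. After thinning to 5000 UMIs, 111 of 3153 SOX10-positive cells in library 1 (3.52%) and 191 of 3497 in library 2 (5.46%) had no OLIG2 UMI, a mean of 4.49% ± 1.37 (SD, n = 2 libraries). Without thinning the mean was 2.93%. No precursor-like or cycling lineage cell was among them (0 of 337 and 0 of 261, and 0 of 383 and 0 of 420). Differentiating cells lacked OLIG2 in 45 of 789 and 80 of 1015 cases (5.70% and 7.88%) and made up 40.5% and 41.9% of all cells lacking it. Without thinning, differentiating cells lacked OLIG2 in 4 of 841 and 7 of 1105 cases and made up 4.04% and 4.61% of the cells lacking it, while neuron-like cells made up 53.5% and 40.1%. NKX2-2 was not detected in 682 of 789 (86.4%) and 913 of 1015 SOX10-positive differentiating cells, and NKX6-2 in 91.0% and 88.6% of all SOX10-positive cells.

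Of 21 hedgehog and ventral patterning genes tested, 12 were called higher and 2 lower in precursor-like than in differentiating cells (median log2 1.17, all genes 0.07), where 32.8% of all genes were higher and 27.1% lower. PTCH1 was at 160 and 159 CPM in precursor-like cells and at 71.2 and 65.1 CPM in differentiating cells (log2 0.79). Of the 13 partner genes, 6 were higher and 4 lower (median log2 0.28), beside the same background. PDGFRA, a growth factor receptor, was used to name the class and stood at 1569 and 1401 CPM there, against 2.84 and 2.65 CPM, and MYRF, the myelin regulatory factor, was at 4.41 and 7.54 CPM in precursor-like cells, against 104 and 109 CPM in differentiating cells. Of 11 neuron-fate factor genes, 0 were called in either direction by edgeR in this comparison, beside 59.9% of all genes. These genes could pass the UMI minimum through neuron-like cells, so 0 calls between 2 lineage classes is not read as a result. In the lineage against neuron-like cells 1 was higher and 10 were lower (median log2 -5.57), where 26.6% of all genes were higher and 39.5% lower. In both species the list also holds CHAT, a neuron marker listed for naming, so this comparison partly repeats the naming.

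Across classes, the genes most like each member were ranked by Pearson correlation of log2(CPM + 1) over 20 class-by-library sums in fugu and 26 in chicken, which share libraries and classes. For olig1 these were ch25hl2 (0.97), GRIK1 (0.95) and ngfra (0.95), and for fugu OLIG2 gal3st1a, cdk15 and the sox10 row (each 0.91 to 0.92). The olig1 ranking is set by the sema5a cluster, which held 139 of its 147 UMIs, and is a description only. For nkx2.2a they were the SOX10 row (0.95), fabp7a and qkia. In chicken, OLIG2 was most like NKX2-2 (0.93), then MAMDC2 and TMEM121, NKX2-2 was most like OLIG2, then ACAP3 and TMEM121, and NKX6-2 was most like OPNVA (0.98), CDH19 (0.90) and PSAT1 (0.90).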

How the data were processed

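Raw UMI counts per gene and barcode, deposited by the authors as 10x matrices of all barcodes, were used for the fugu and chicken libraries. The submitters' processing notes name Cell Ranger 7.2.0 and Seurat 5.3.0, and per the study's methods chicken reads were mapped to an Ensembl genome and fugu reads to a custom reference made from that of Takifugu rubripes, since the fugu used had none. The assembly names are not given in the sources used here. Chromium 3′ v3 chemistry counts the 3′ end of transcripts, so levels were compared between classes and not between genes. Library totals, cells and median depths are given in the results, and intervals cover counting error only.

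Barcodes above the UMI minimum were kept, with at least 90 and 80 genes in fugu and 150 and 160 genes in chicken libraries 1 and 2. Doublets were the top Scrublet scores (scanpy 1.11.5) at 0.8% per 1000 barcodes. Seurat 5.3.0 clustered the cells on 2000 variable genes without the members (10 principal components, resolution 0.5). Markers counted when at least 10% of a cluster's cells carried them at 1.5 times the level elsewhere. Outside the lineage, at least 3 named a class. SOX10 in at least 60% of cells placed a cluster in the lineage, unless it carried all 3 genes taken here as the study's radial glia panel. The sema5a cluster was kept out of the lineage by this exception. In the fugu lineage, mature cells needed at least 5 mature markers, and precursor-like cells needed gpr17 alone. In chicken, PDGFRA among the 10 leading genes named precursor-like cells, and ENPP6 in at least 50% of cells then named differentiating cells. PDGFRA in at least 50% of cells named intermediate cells, and the remaining clusters were called GPR17-high. Cycling clusters were named from cell cycle genes. This naming rule was set after the clusters were seen, so a difference from the study may come from the rebuilt names.

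Counts were summed per class and library. Classes with at least 20 cells in each library entered 1 fit per species (R 4.3.3, edgeR 4.0.16, TMM scaling, quasi-likelihood test) with genes of at least 50 UMIs over all sums, and Benjamini-Hochberg adjustment over all genes. For the comparisons of classes, edgeR and DESeq2 1.42.0 were run on the counts as deposited. The test of SOX10-positive sema5a cells without against with olig1 was run on the thinned counts. With 2 pooled libraries a group, p-values measure the spread between these libraries over all classes in the fit, not only the compared ones. This spread may be technical. The sums of a library come from the same pool and are paired. The correlation of their deviations from class means was between 0.0342 and 0.469, and the fit with the library as a block is an alternative. Libraries of a species differed beyond sampling noise (their summed counts over genes gave a chi-square of 17.8 in fugu and 74.1 in chicken when divided by its degrees of freedom). In data simulated from each comparison, 50.5% to 93.5% of 200 genes changed 4-fold were recovered, with 3 to 27 false calls.

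The alternatives were DESeq2, no filter on low counts, the library block, each class sum left out, a UMI minimum 1.5 times as high, doublets kept, resolution 1.0 and members kept among the clustering features. The test of SOX10-positive cells without against with olig1 was planned for the mature class, where 1 cell carried olig1, and was run in the sema5a cluster after this was seen. The comparisons of the sema5a cluster with precursor-like cells, of GPR17-high with differentiating cells and of the 2 astrocyte-like classes, and the fits with only the compared classes, were also added after seeing the data. Named genes were the members, SOX10, the called genes of the olig1 comparison, the 3 genes most like each member and genes of fixed hedgehog, lineage partner and neuron-fate lists. The relatives nkx6.1 and nkx6.2 and the examples from the lists were chosen after their values were seen. The members and lists were chosen with earlier results of these data known.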

Additional observations from a re-analysis of the deposited data

Results flagged for a closer look

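The fitted differences of OLIG2 between the class named precursor-like and the mature or differentiating class had opposite signs in the 2 species. In fugu precursor-like against mature cells the value was log2 -0.70 and was not called, with 22.8 against 45.9 CPM in library 1 and 34.7 against 36.5 CPM in library 2. In chicken precursor-like against differentiating cells it was log2 2.25 and called. The fugu precursor-like class was led by gpr17 and tcf7l2 among others. The myelin gene mag was at 1447 to 1638 CPM in that class and at 4512 to 4966 CPM in mature cells. Chicken precursor-like cells were named from PDGFRA, so the 2 precursor-like classes need not be the same stage. In chicken GPR17-high against differentiating cells, OLIG2 was at log2 0.84 and not called (edgeR adjusted p = 0.154). It was called with only these classes in the fit. The difference between the species was not tested. Fugu nkx6.2 was at log2 5.67 in the lineage against astrocyte-like cells, while chicken NKX6-2 was at log2 -2.11 in the same comparison, again in both libraries of each species. This difference was not tested either, and the genes are relatives rather than established counterparts here. Species, age and the classes available differ together, so these cannot be told apart.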

How the results depend on the processing

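Of 646 values for single genes under the alternatives, 620 kept their side of the threshold, 11 became called, 14 lost the call and 1 called value reversed. In fugu no member was among the 2000 variable genes, so keeping members among the clustering features repeated the main fit. Those fugu values are among the 620 and could not change. The 620 include values that changed sign while called in neither fit. SOX10 in the sema5a cluster against mature cells, for example, was at log2 0.14 in full and fell to -0.34 without 1 class sum. The reversed value was fugu nkx6.1 in the lineage against neuron-like cells, at log2 -2.87 in full. It lay between -3.73 and 1.66 without 1 class sum. It was positive only without neuron-like replicate 2, where 1 cell held all 9 neuron-like UMIs. In the lineage, mature cells held 2 nkx6.1 UMIs and precursor-like cells 0. nkx6.1 passed the UMI minimum only through mural-like cells, which held 90 of its 116 UMIs. Neither its call nor the reversal is therefore read as a difference between these classes. Of 142 counts and shares, 132 stayed within the limits and 10 moved. The 132 include the fugu counts of calls with members kept for clustering, which could not move. The SOX10 shares without 1 library could not move either, since their limit was the SD of the 2 libraries. Without thinning, the share of SOX10-positive fugu cells lacking olig1 was 96.5% and that of chicken cells lacking OLIG2 was 2.93%. For SOX10-positive sema5a cells without against with olig1, 0 genes were called by DESeq2, 19 with no filter on low counts and 1 with no replicate block, against 3. The fits of these cells that left out a sum also had no block. Leaving out 1 class sum gave 1 to 18 genes there, 1726 to 2727 genes in fugu precursor-like against mature cells (2876 in full) and 1916 to 2400 in the chicken SLC6A11 against AQP1 classes (3013 in full). The library as a replicate block changed 1 of 55 gene calls, SOX10 in the sema5a cluster against precursor-like cells (log2 0.48, edgeR adjusted p = 0.00665 with the block and 0.0875 without), and moved no other count of calls by over 1.5 times. The cause of these changes was not tested. Shallow fugu classes limit OLIG2, which rests on 9 and 11 UMIs in precursor-like cells.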
